A study of Mus musculus with 14 samples.

Results

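Jmjd6, formerly called Ptdsr, and 9 genes from the same stretch of mouse chromosome 11 were followed on 14 two-colour cDNA arrays that compared Ptdsr-/- fibroblasts with wild-type fibroblasts. The genes were chosen by symbol, as the targeted gene and the neighbours Exoc7, Cygb, Rhbdf2, Srp68, Ten1, Unc13d, Trim47, Wbp2 and Itgb4. They make up 10 of the 9930 genes named on the array and have 11 of its 20355 probes, 2 of them for Jmjd6. Every array carried both RNAs, with the knockout in Cy5 and the wild type in Cy3 on 7 arrays (replicates 1, 3, 4, 7, 8, 9 and 13), and with the dyes exchanged on the other 7 (replicates 2, 5, 6, 10, 11, 12 and 14). The series describes 2 fibroblast cultures, and no label says which array came from which culture, so the p-values measure the spread between arrays, part of which may be technical. The deleted part of the gene, the strain and the age of the mice are not given, the protocol text shared by all arrays also speaks of organs and of a pool of control animals, and the wild-type RNA served as 1 control whose own spread was not measured. Values are given as the log2 of knockout over wild type, so that a value below 0 means less signal from the knockout. This direction is likely but not stated in the labels. It rests on a repeated extreme value, taken to stand for a denominator of 0, whose sign was positive on 7 of 7 Cy5 arrays and negative on 7 of 7 Cy3 arrays (named here and below by the knockout's dye). It also takes the ratio to have been formed as Cy5 over Cy3. Had it been Cy3 over Cy5, the same signs would mean wild type over knockout, and every direction given here would be reversed.

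Jmjd6 encodes a nuclear oxygenase of the JmjC family, which uses iron, oxygen and 2-oxoglutarate. It was first described as a receptor on phagocytes for phosphatidylserine, the lipid exposed by dying cells, and was later shown to hydroxylate lysines of splicing factors. Genes beside a targeted allele lie in the same chromosomal segment, and those listed here share no pathway. Exoc7 and Srp68 serve secretion and protein targeting, Rhbdf2, Itgb4 and Unc13d act at the cell surface or in its exocytosis, and Cygb, Ten1, Trim47 and Wbp2 belong to oxygen binding, telomere upkeep, ubiquitin transfer and transcription.

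In the RefSeq annotation of GRCm38.p6, used here for gene order, all 9 neighbours lie on 1 side of Jmjd6. Cygb is 11 genes away and Rhbdf2 12, followed by Exoc7 at 24, Srp68 at 26, Ten1 at 30, Trim47 at 36, Wbp2 at 37, Unc13d at 38 and Itgb4 at 44, counting annotated genes of every kind. The genes directly beside Jmjd6 are Mxra7 on this side and Mettl23 on the other, with Srsf2, a splicing factor gene, next after Mettl23. The window around the Jmjd6 start (250 bases before and 50 after it, minus strand, chr11:116843400-116843699, GRCm38.p6, RefSeq) is shown because it overlaps the window of Mettl23, which is read from the other strand. Capitals mark the 165 letters that both windows share.
Jmjd6: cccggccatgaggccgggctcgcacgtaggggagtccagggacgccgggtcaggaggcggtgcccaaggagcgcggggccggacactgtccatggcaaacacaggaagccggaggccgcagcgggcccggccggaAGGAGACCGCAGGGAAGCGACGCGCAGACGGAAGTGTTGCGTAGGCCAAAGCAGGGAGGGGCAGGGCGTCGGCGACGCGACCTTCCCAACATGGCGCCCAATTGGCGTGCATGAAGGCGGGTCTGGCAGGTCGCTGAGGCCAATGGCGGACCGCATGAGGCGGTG
The window holds 33 CG pairs, a number reached by 8.56% of the 32851 windows in the table. Searched on both strands, CCAAT occurs 3 times (at least once in 37.4% of all windows), and neither GGGCGG (in 35.7%) nor TATAAA (in 13.6%) is among its letters. These matches describe the sequence and were not linked to a measurement, as Mettl23 was not measured here under its name.

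The arrays gave between 13165 and 19615 usable log2 ratios each, with replicates 1 and 2 at the low end. Ratios carry no signal intensity, so neither the level of a gene nor the fibroblast identity of the cells could be read from them. The array medians ran from -0.334 to 0.245 as deposited, and each array was centred on its median. Of the 11 probes, 10 had enough values to be tested, and 4 of these (Jmjd6, Exoc7, Unc13d and Trim47) had a value on all 14 arrays.

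Jmjd6 was below 0 on 12 of 14 arrays as deposited, and would be on 9 of 14 if the Cy3 arrays still needed turning, and it was not called. With the knockout in Cy5 its main probe read -1.33, -0.47, -1.31, -0.41, -0.22, -0.86 and -1.04 on replicates 1, 3, 4, 7, 8, 9 and 13, all below 0. With the knockout in Cy3 it read 2.92, -0.23, 0.46, -0.77, -1.10, -1.02 and -1.74 on replicates 2, 5, 6, 10, 11, 12 and 14, so that 2 of these arrays lay above 0. Replicate 2 thus stood on the side opposite to the lowest arrays by more than any other. The mean over all arrays was -0.51 ± 1.14 (SD, n = 14), 1.42-fold lower, with a 95% interval of -1.12 to 0.10 (limma, adjusted p = 0.895). Among probes with a value on every array, 1.96% were below 0 on at least 12 of 14, and 3.39% were on 1 side of 0, either one, on at least 12. In replicates 1 to 6 Jmjd6 averaged 0.0075 ± 1.58 (SD, n = 6), in replicates 7 to 12 -0.73 ± 0.35 (SD, n = 6) and in replicates 13 and 14 -1.39 ± 0.50 (SD, n = 2). These ranges of numbers are no labelled batches, and all 8 arrays from replicate 7 on lay below 0.

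The Jmjd6 value of replicate 2 was a ratio of 9 to 1 within 0.0011 log2 units once the array's 1:1 step, its most frequent value, had been subtracted from the deposited value. Ratios of whole numbers up to 10 recurred more often than matches to a displaced grid. The 1:1 step itself counts as a match, which adds to their share by construction. Whether they were formed from very small numbers was not tested. Their share of the values was 13.7% to 31.6% per array, and 1.80% to 3.03% on the displaced grid. No other Jmjd6 value of the main probe was such a ratio. Without replicate 2 the Jmjd6 mean was -0.77 ± 0.59 (SD, n = 13), with a 95% interval of -1.15 to -0.40, and it still missed the threshold over all probes (limma, adjusted p = 0.463, unadjusted p = 0.000597). When every whole-number ratio on every array was set to missing, a step chosen after the values were seen, Jmjd6 was below 0 on 12 of 13 arrays at -0.77, and its adjusted p was 0.206 among 11838 probes.

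The second Jmjd6 probe had values on 5 arrays, with a mean of 0.27 ± 1.10 (SD, n = 5), and was not tested in the main fit. It read 1.09 on replicate 4, 0.48 on replicate 9, -1.65 on replicate 12, 0.87 on replicate 13 and 0.56 on replicate 14. On 4 of these 5 arrays it lay above 0 while the main probe lay below 0, and on replicate 12 both lay below 0. Its values of replicates 9 and 12 were ratios of 4 to 3 and of 1 to 4, and replicate 8 held the repeated extreme value. The stretch of transcript that either cDNA covers is unknown here, so neither is a check of the deletion. Averaging both probes gave -0.25 for the gene (limma, adjusted p = 0.934).

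**Figure D1:**
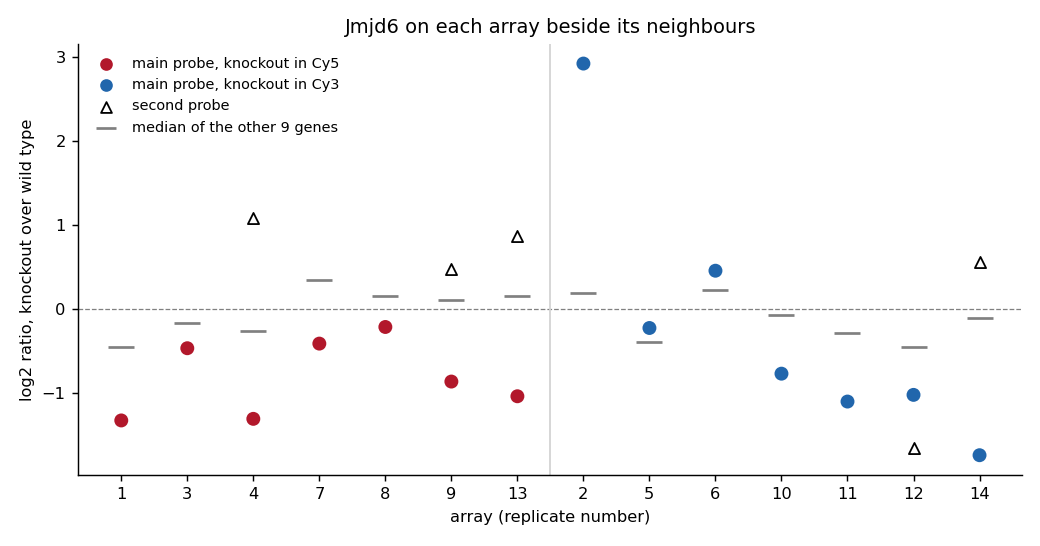
Log2 ratio of knockout over wild type (y axis) on each of the 14 arrays (x axis, replicate number), left of the line with the knockout in Cy5 and right of it with the knockout in Cy3. Circles show the main Jmjd6 probe, triangles the second probe and grey dashes the median of the other 9 genes. The main probe lies below 0 on 12 arrays and at 2.92 on replicate 2.

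Set beside its neighbours on the same array, the main Jmjd6 probe lay below the median of the other measured genes on 11 of 14 arrays, with a median difference of -0.73. It was the lowest of the measured genes on 5 arrays. The array medians of the neighbours stayed between -0.45 and 0.34. On replicates 2, 5 and 6, all with the knockout in Cy3, Jmjd6 stood above the neighbours' median. The genes were chosen with results of these data known, so this is a description without a test.

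None of the 10 tested probes was called as different between knockout and wild-type fibroblasts, against 0.0324% of all 18503 probes tested (limma, adjusted p below 0.05). At an unadjusted p below 0.05 the count was also 0 of 10, against 5.05% of all probes. The adjusted p of the 10 probes lay between 0.895 and 0.922. Of the 10 means, 6 were below 0 and 4 above.

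**Figure D2:**
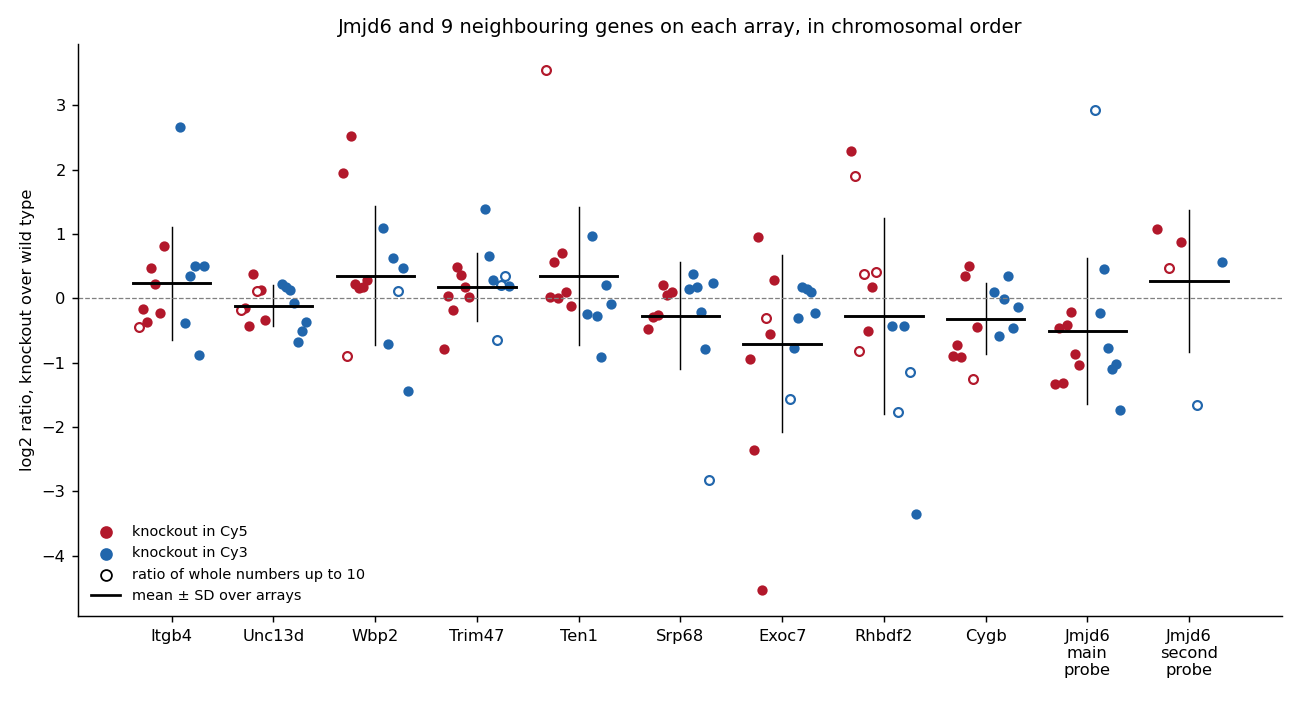
Log2 ratio of knockout over wild type (y axis) for every measured value of the 11 probes, with genes in chromosomal order from Itgb4 to Jmjd6 (x axis). Points are arrays, coloured by the dye of the knockout, open points are ratios of whole numbers up to 10, and black lines give the mean ± SD. Unc13d has the narrowest spread, and single arrays stand apart for Ten1, Srp68, Exoc7, Itgb4 and Jmjd6.

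Exoc7 and Srp68 belong to machines for moving proteins. Exoc7 encodes a subunit of the exocyst, which tethers secretory vesicles to the plasma membrane, and it had the lowest estimate of the 10. Its values ran from -4.53 to 0.95 with a median of -0.30, and 9 of 14 arrays lay below 0. The mean was -0.71 ± 1.38 (SD, n = 14), with a 95% interval of -1.43 to 0.02 (limma, adjusted p = 0.895). Replicate 7, at -4.53, was a ratio of 1 to 20, and without it the estimate was -0.42 (adjusted p = 0.903). Srp68 encodes a subunit of the signal recognition particle, which directs nascent secretory proteins to the endoplasmic reticulum. Its values ran from -2.82 to 0.39 with a median of 0.053, and the arrays divided almost evenly, with 6 below 0 and 7 above. Its mean of -0.27 ± 0.83 (SD, n = 13) rested on replicate 12, a ratio of 1 to 9. Without that array the estimate was -0.059.

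Rhbdf2, Itgb4 and Unc13d act at the cell surface or in secretion. Rhbdf2 encodes the inactive rhomboid iRhom2, which carries the shedding protease ADAM17 to the surface. It was split by dye. With the knockout in Cy5 its values ran from -0.82 to 2.30 with a median of 0.37 (2 of 7 arrays below 0), and with the knockout in Cy3 from -3.35 to -0.43 with a median of -1.15 (5 of 5 below 0). The Cy5 arrays averaged 0.55 ± 1.16 (SD, n = 7) and the Cy3 arrays -1.43 ± 1.21 (SD, n = 5), and the ranges overlapped. The dye term was 0.99 (limma, unadjusted p = 0.00844, adjusted p = 0.512), a p that 1.65% of all probes reached. Whole-number ratios made up 6 of the 12 Rhbdf2 values, the highest count among the 10 tested probes. The mean over both dyes had an estimate of -0.44, with a 95% interval of -1.13 to 0.25.

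Itgb4 encodes the beta4 integrin of hemidesmosomes, which anchor epithelial cells to laminin. Its values ran from -0.89 to 2.66 with a median of 0.22, with 6 arrays below 0 and 7 above. The estimate was 0.25, and 0.029 without replicate 2, which read 2.66, a ratio of 15 to 2. Unc13d encodes Munc13-4, known for granule release by cytotoxic lymphocytes. It was the most steady of the 10, between -0.68 and 0.39 on all 14 arrays and within 0.5 of 0 on 12 of them. Its mean was -0.11 ± 0.32 (SD, n = 14), and its residual SD of 0.327 was above that of 3.85% of the probes tested. The 95% interval of its estimate ran from -0.37 to 0.15.

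Cygb, Ten1, Trim47 and Wbp2 act inside the cell. Cygb encodes cytoglobin, a haem protein found in fibroblasts that binds oxygen and acts on nitric oxide. It lay below 0 on 9 of 13 arrays, from -1.26 to 0.50 with a median of -0.44, and had a mean of -0.32 ± 0.55 (SD, n = 13; limma, adjusted p = 0.895). Its 95% interval of -0.66 to 0.05 includes 0. Ten1 encodes a subunit of the CST complex at telomeres. Its values ran from -0.91 to 3.55 with a median of 0.016. Replicate 1 alone, a ratio of 10 to 1, gave it an estimate of 0.32, against 0.078 without that array.

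Trim47 encodes a tripartite motif protein, a family of ubiquitin ligases, and lay above 0 on 11 of 14 arrays. Its values ran from -0.78 to 1.39 with a median of 0.20, and its mean was 0.18 ± 0.53 (SD, n = 14; limma, adjusted p = 0.895). Wbp2 encodes a WW domain-binding protein that works with the coactivator Yap1, and it lay above 0 on 10 of 13 arrays, from -1.44 to 2.52 with a median of 0.23. On replicates 7 to 12 its 6 values averaged 0.30 ± 0.21 (SD, n = 6) and all lay above 0, while on replicates 1 to 6 they averaged 0.79 ± 1.55 (SD, n = 5) and on replicates 13 and 14 -0.58 ± 1.22 (SD, n = 2). Without replicate 4 the Wbp2 estimate was 0.17, against 0.33 with all arrays.

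In order of the estimates as deposited, Exoc7 was lowest, followed by Jmjd6, Rhbdf2, Cygb, Srp68, Unc13d, Trim47, Itgb4, Ten1 and Wbp2. Neighbours in this order differed by less than the standard error of their difference, except Unc13d and Trim47, whose estimates differed by 0.29 with a standard error of 0.20. This standard error treats the genes as independent, although they share the arrays, so the order is a description. With the Cy3 arrays turned, the order from the lowest was Exoc7, Jmjd6, Itgb4, Cygb, Trim47, Unc13d, Srp68, Wbp2, Ten1 and Rhbdf2, so that Exoc7 and Jmjd6 kept their places and Rhbdf2 moved to the other end. As deposited, all 10 of the 95% intervals included 0. The intervals reached beyond 1 log2 unit from 0 in Exoc7, Jmjd6 and Rhbdf2, and stayed within 0.4 in Unc13d. They measure the spread between arrays, in which the cultures cannot be told apart, so they do not bound the change caused by the knockout.

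**Figure D3:**
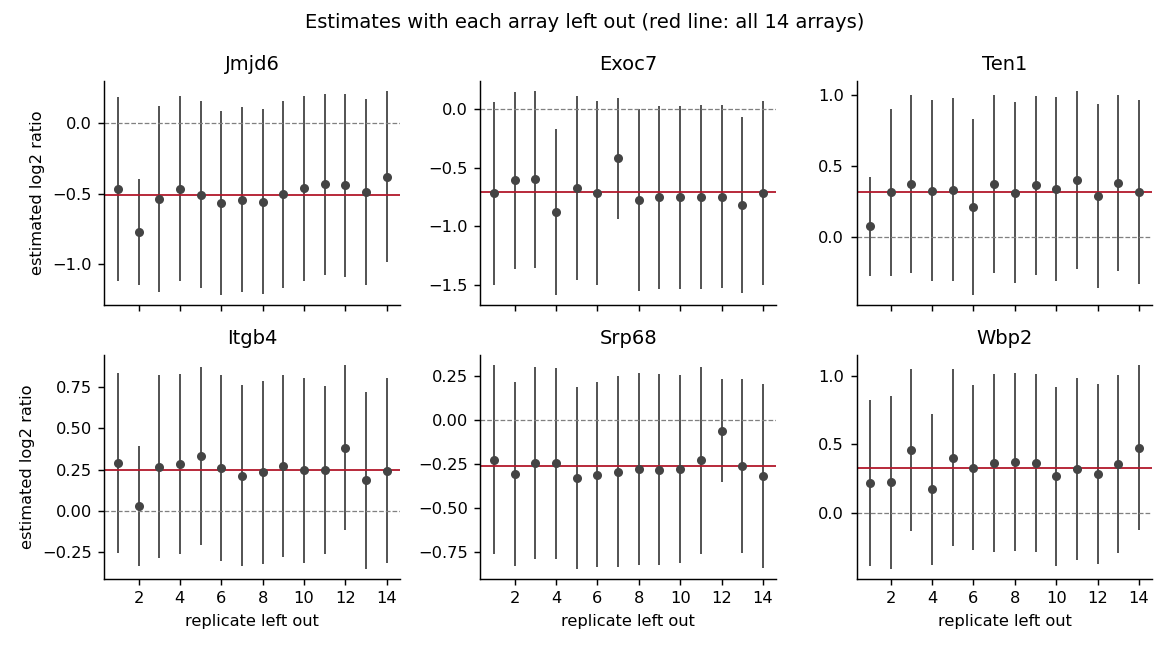
Estimated log2 ratio of knockout over wild type (y axis) with 1 array left out (x axis, its replicate number) for Jmjd6, Exoc7, Ten1, Itgb4, Srp68 and Wbp2. Points are estimates, bars 95% intervals and red lines the estimate from all arrays. Ten1 without replicate 1, Itgb4 without replicate 2 and Srp68 without replicate 12 lie at 0.078, 0.029 and -0.059.

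Taken array by array, the median of the 10 genes ran from -0.68 on replicate 11 to 0.29 on replicate 6. At least 7 of the measured genes lay below 0 on replicates 1, 3, 4, 5 and 10, and at most 2 did on replicates 2, 6 and 7. The spread over the genes was widest on replicate 1, with an SD of 1.68 against 1.54 over all probes of that array, and narrowest on replicate 8, with 0.371 against 0.689. By ranges of replicate numbers, Exoc7 averaged -0.84 ± 1.13 in replicates 1 to 6 and -0.83 ± 1.84 in replicates 7 to 12 (SD, n = 6 each), and 0.032 ± 0.37 (SD, n = 2) in replicates 13 and 14. Cygb averaged -0.60 ± 0.42 (SD, n = 5) in replicates 1 to 6 and -0.089 ± 0.67 (SD, n = 6) in replicates 7 to 12, with -0.29 ± 0.22 (SD, n = 2) in replicates 13 and 14. Differences between these ranges were not tested.

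The largest value of a gene was often a whole-number ratio among the 10 genes. For 7 of the 10 tested probes (those of Jmjd6, Exoc7, Cygb, Rhbdf2, Srp68, Ten1 and Itgb4) the value farthest from 0 was a ratio of whole numbers up to 20. The share of all probes for which this holds was not counted, so whether 7 of 10 is unusual is unknown. A different measure, taken over the single values of all probes, gave 52.4% such ratios among the 7227 values of at least 8-fold from the 1:1 step. On a displaced grid it gave 0.194%. Of the 133 values of the 10 tested probes, 15.04% were ratios of whole numbers up to 10. This lies near the low end of the shares of the single arrays over all probes, 13.7% to 31.6%. The share pooled over all arrays was not counted. Whether these values came from dim spots was not tested, as the ratios carry no intensity.

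The dye of the knockout was tested in the same model. None of the 10 probes had a called dye term, against 0.0054% of all probes, and 1 of 10 (Rhbdf2) had an unadjusted p below 0.05, against 7.66% of all probes. Jmjd6 averaged -0.81 ± 0.45 on the Cy5 arrays and -0.21 ± 1.55 on the Cy3 arrays (SD, n = 7 each), and its dye term had an adjusted p of 0.829 by limma. The medians were -0.86 on the Cy5 arrays and -0.77 on the Cy3 arrays. Had the Cy3 arrays not been turned before deposit, the Jmjd6 estimate would be -0.30 and that of Rhbdf2 0.99, neither called. Both these values come from the same dye term.

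**Figure D4:**
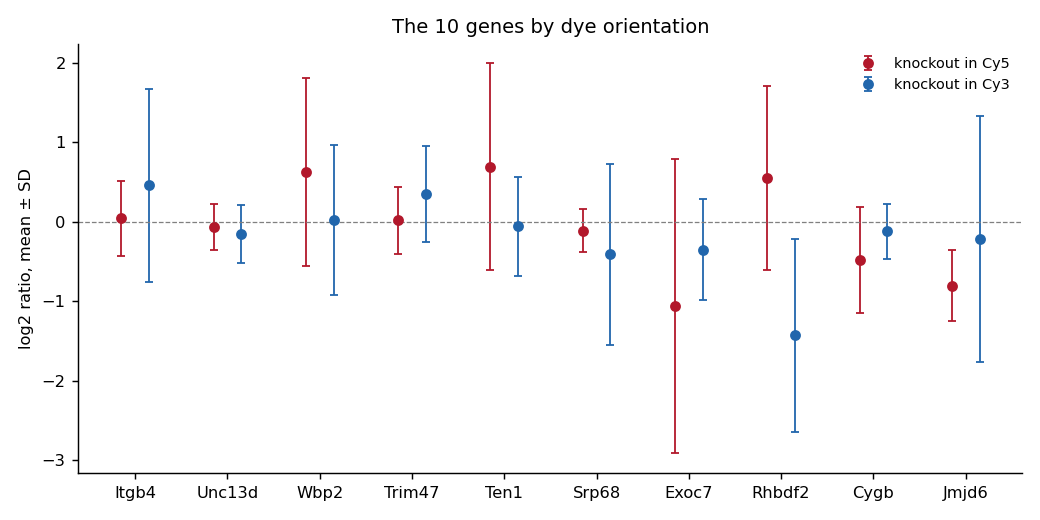
Mean log2 ratio of knockout over wild type (y axis) of the 10 genes in chromosomal order (x axis), with the knockout in Cy5 (red, left) and in Cy3 (blue, right). Bars are SD over 5 to 7 arrays. The means of Rhbdf2 lie on opposite sides of 0, at 0.55 and -1.43.

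The wider neighbourhood was described with the 40 annotated genes on each side of Jmjd6, averaging probes per gene. Of these 80, 25 were tested, 8 of them among the 9 neighbours above and 17 others. None was called, against 0.0863% of 9270 genes (limma), and none had an unadjusted p below 0.05, against 5.35% of all genes. Of the 17 others, 13 were below 0 and 4 above, with a median of -0.031 and a range of -0.22 to 0.27. Over all genes 49.6% were below 0 and the median was 0.002. Exoc7 and Cygb had the smallest p of the 25. Of the genes nearest to Jmjd6, Srsf2 had an estimate of -0.11 from 10 arrays, with values between -3.27 and 2.60, and Mxra7 had a gene mean of 0.05 from 14 arrays.

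**Figure D5:**
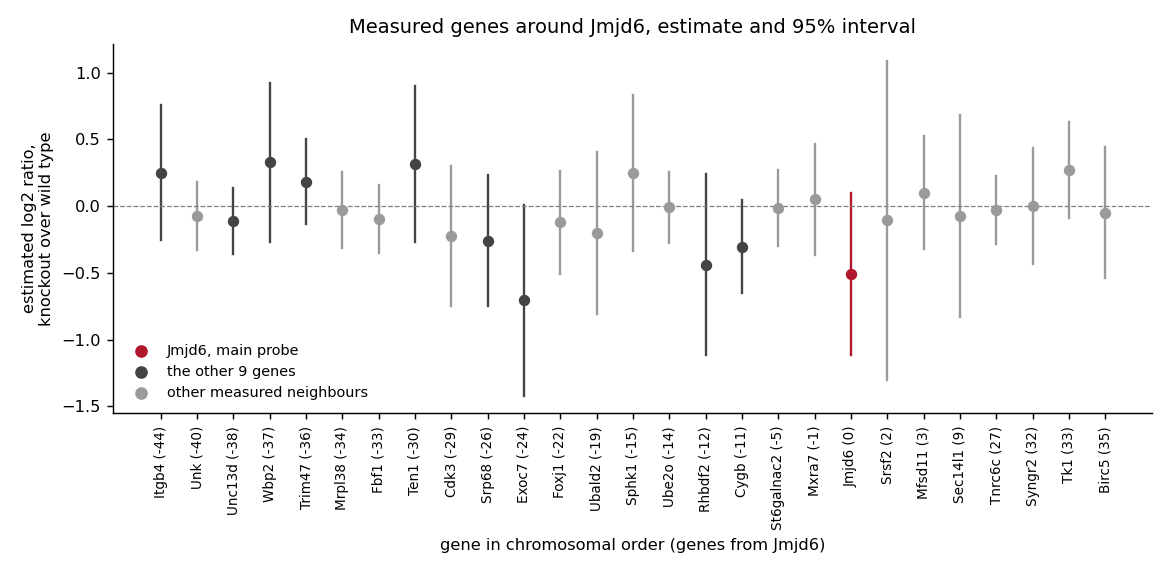
Estimated log2 ratio of knockout over wild type with its 95% interval (y axis) for Jmjd6 and the measured genes around it, in chromosomal order with the number of genes from Jmjd6 in brackets (x axis). Jmjd6 is red, the other 9 genes dark and further measured neighbours light. Jmjd6 is shown by its main probe and the others by probes averaged per gene, a measure that gives -0.25 for Jmjd6. Every interval includes 0.

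Relatives and partners of the 10 genes were counted from fixed lists, and 0 of their members were called by limma, against 0.0863% of all genes. Of the 11 tested JmjC oxygenases, 6 were above 0 and 5 below, with a median of 0.012. The smallest p among them belonged to Hr, a nuclear corepressor of hair follicles, at -0.44 ± 0.99 (SD, n = 13). Of 7 tested genes for proteins linked to Jmjd6 in other work, mostly splicing factors, 4 were above 0 and 3 below, with a median of 0.072. Luc7l3 had the smallest p, at -0.35 ± 0.78 (SD, n = 12). The lists for the exocyst (4 tested), the globins (4), CST and telomere proteins (5), granule exocytosis (4), hemidesmosomes (3), Wbp2 partners (6) and tripartite motif proteins (5) had no member at an unadjusted p below 0.05, against 5.35% of all genes, and their medians lay between -0.12 and 0.065. In these lists the smallest p belonged to Exoc6b at -0.28, Ngb at 0.30, Ctc1 at 0.26, Stx11 at -0.38, Cd151 at 0.097, Yap1 at 0.24 and Trim25 at -0.31.

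Beside Srp68, 1 of 7 tested members of the signal recognition particle and its receptor had an unadjusted p below 0.05. This was the receptor subunit gene Srprb, at 0.31 ± 0.47 (SD, n = 14; limma, adjusted p = 0.901), above 0 on 10 of 14 arrays. Beside Rhbdf2, 1 of 5 tested members of its list did so. Adam17, the protease that iRhom2 carries, stood at -0.62 ± 0.84 (SD, n = 13; limma, adjusted p = 0.834) and below 0 on 11 of 13 arrays. Neither passed the threshold over all genes, where 5.35% had an unadjusted p below 0.05.

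Markers of other cells were read as changes only, beside 0.0863% of all genes called and 5.35% with an unadjusted p below 0.05. Of 8 tested macrophage and leukocyte markers, Lyz2 was called lower at -1.62 ± 0.96 (SD, n = 14; limma, adjusted p = 0.0104) and 5 of 8 estimates were below 0, with a median of -0.35. Cd68 stood at -0.51 with an adjusted p of 0.751 by limma, and with Lyz2 it made 2 of 8 at an unadjusted p below 0.05. The 3 estimates above 0 were those of H2-Eb1 at 0.24, Cybb at 0.13 and Mrc1 at 0.004. Of 8 epithelial markers 0 were called, with a median of -0.12, and 1 had an unadjusted p below 0.05 (Krt14, at -0.48). Of 10 fibroblast markers 0 were called, with a median of -0.066, and 1 had an unadjusted p below 0.05 (Dcn, at -0.65). The part of such cells in the values of Unc13d or Itgb4 was not tested, and fewer cells of a type cannot be told apart from less RNA per cell.

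The genes whose pattern over the 14 arrays was most like that of the main Jmjd6 probe, among 4493 named probes with all values, were Nf1, Gm5124, Nrgn, Incenp and Pigx. Likeness was measured with Spearman's rank correlation and ran from 0.90 for Nf1 to 0.86 for Pigx. Pearson correlations of these genes ran from 0.61 for Incenp to 0.83 for Nf1. Their means lay between -0.071 and 0.11, so these genes shared the order of the arrays and not the mean. All 5 had positive values on replicate 2, between 0.43 and 2.06. Jmjd6 was highest on that array and these genes were chosen by likeness to it, so such values follow largely from the choice. Of the neighbours with all 14 values, Unc13d was 20th in this order (rank correlation 0.78), Trim47 was at place 127 (0.67) and Exoc7 at place 4324 (-0.48). The arrays share 2 cultures and their dyes, so these correlations are a description of the arrays and carry no p-value.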

How the data were processed

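The authors deposited log2 ratios of both channels for 20355 probes on 14 arrays. Base 2 was read from the values, whose most frequent ratios are those of small whole numbers. Per the labels' protocols, cDNA made from total RNA received its Cy3 or Cy5 dye indirectly. For scanning, background correction, normalization and genome build, no source used here gives the steps. Probes were named through GEO's platform annotation, with symbols updated by gene ID (13994 of 14030 probes with 1 gene; 5 had several and 6320 none).

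Absolute values above 12, the coded extremes, were set to missing, and the median of each array was subtracted. A test needed values on 10 or more arrays, with 4 or more per dye orientation, and was made with limma 3.58.1 in R 4.3.3 (lmFit, eBayes), with an intercept against 0 and a dye term of +1 or -1, and Benjamini-Hochberg adjustment over all 18503 probes. Estimates weight both dye orientations equally. Gene lists used probes averaged per gene. The fit was tested on simulated data. Whole-number ratios were matched on the log2 scale, within 0.0011, after the array's 1:1 step (its most frequent value) was subtracted. The members, lists, direction and model were chosen with earlier results of these data known. Named were all probes of the 10 genes, list genes with an unadjusted p below 0.05 or the smallest p of their list, the nearest measured neighbours and the 5 most alike probes. Alternatives covered centring, scaling, missing values, dye, array blocks, variance and single arrays. The ratios carry no spot intensity, so the number of arrays limits the precision.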

Additional observations from a re-analysis of the deposited data

Results flagged for a closer look

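Within the 7 arrays of each dye orientation, 20 sets of 5 to 7 values were searched for an array far from the rest. About 1 in 20 sets would be marked by chance if the values were normally distributed, which was not tested. The share of sets marked over all probes was not counted, so whether 2 of 20 is unusual is unknown. In Srp68, replicate 12 (knockout in Cy3) stood at -2.82 while the other 6 arrays of that orientation lay between -0.79 and 0.39. In Ten1, replicate 1 (knockout in Cy5) stood at 3.55 while the others lay between -0.13 and 0.71. Both values were ratios of small whole numbers, of 1 to 9 and of 10 to 1. The Jmjd6 value of replicate 2 did not meet this mark, as the gap to its nearest array was smaller relative to the whole range.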

How the results depend on the processing

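Each array held both RNAs, so the test of its ratio against 0 was already a paired one. All arrays form 1 group, and no further pairing was available. In 28 alternatives, 0 of the tested probes of the 10 genes were called. Only 4 could be tested with values on all 14 arrays and 9 with whole-number ratios set to missing (not Rhbdf2). With values on at least 4 arrays 11 could be tested, as the second Jmjd6 probe then passed the filter. The Jmjd6 estimate, of the main probe or of the average of both probes, stayed below 0 in all 29. Some of these settings leave the estimate unchanged by construction. They are values on all 14 arrays or on at least 4, no dye term, robust and trended eBayes, and the sign permutation. The settings without single arrays share most of their arrays. The Jmjd6 estimate lay between -0.81 (knockout in Cy5 only) and -0.21 (knockout in Cy3 only), with adjusted p from 0.206 upward, and between -0.77 and -0.38 without single arrays. Its 95% interval excluded 0 in 5 of them, with scaled arrays (-0.58, unadjusted p = 0.0160), number ranges as a fixed block (-0.71, p = 0.0419), the Cy5 arrays alone (p = 0.00289), without replicate 2 and without whole-number ratios. So did that of Rhbdf2, Exoc7 and Cygb in 2 alternatives each. For Exoc7 (without replicate 4 or 13) and Cygb (without replicate 7 or 8) these intervals lay below 0. For Rhbdf2 they lay on opposite sides of 0, with estimates of 0.99 (Cy3 arrays turned) and -1.43 (knockout in Cy3 only). An exact permutation test over the signs of the 14 arrays gave p = 0.116 (two-sided). Of 274 estimates of the 10 genes under alternatives (the second Jmjd6 probe by itself not counted), 7 had the opposite sign. With the Cy3 arrays turned these were Rhbdf2 (0.99), Unc13d (0.045), Trim47 (-0.17), Itgb4 (-0.21) and Srp68 (0.15). With the knockout in Cy5 only it was Rhbdf2 (0.55), and in Cy3 only Ten1 (-0.058). None of these was called, and the cause was not tested. Over all probes 6 were called. The count was 11 with values on all 14 arrays and 11 with whole-number ratios set to missing (both with fewer probes tested, the second setting chosen after the data were seen), 1 with the Cy3 arrays turned, 0 with either dye alone, 0 with robust and trended eBayes, and 4 to 9 without single arrays. Leaving out 1 array moved the estimate by over 1.5 times for Jmjd6 (replicate 2, to -0.77), Rhbdf2 (12, to -0.20), Unc13d (11, to -0.068), Ten1 (1, to 0.078), Wbp2 (4, to 0.17), Trim47 (2, to 0.097), Itgb4 (2, to 0.029), Exoc7 (7, to -0.42) and Srp68 (12, to -0.059).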

Other observations

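Mxra7, the gene directly beside Jmjd6, is represented by 5 probes that did not give 1 value. Of the 4 with enough values to be tested, the lowest had an estimate of -0.72 (values from -6.23 to 1.99) and the highest one of 0.62 (values from -0.38 to 4.84, above 0 on 13 of 14 arrays), and both had an adjusted p of 0.895 by limma. The first probe averaged -0.67, and -0.20 without replicate 13 (-6.23), and the second 0.62, and 0.30 without replicate 2 (4.84). The gene mean of 0.05 joins probes of opposite sign.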
